A study of Mus musculus with 12 samples.

Results

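Apolipoproteins and the lipid transfer protein Mttp were followed in arrays from the KK-Ay strain, the KK strain and controls, all mice. The set was a list of 10 genes, and a gene was measured by the transcript cluster, the array's unit for 1 gene, that carried its symbol and no other. Of the 10 genes, 9 were measured, each by 1 cluster, among 19938 genes of the array measured in that way. Apoc2 shares its only cluster with Gm44805, so no value is given for it.

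The liver packs triglyceride and cholesterol ester around Apob, the structural protein of very low density lipoprotein (VLDL), and secretes the particle. Mttp, the microsomal triglyceride transfer protein, loads lipid onto Apob in the endoplasmic reticulum, and without it Apob is degraded. The small apolipoproteins then travel on the particles and act on lipases and receptors: Apoa5 raises lipoprotein lipase activity, Apoc3 and Apoc1 restrain clearance, Apoe is the ligand for hepatic uptake, and Apoa1 and Apoa2 form the frame of high density lipoprotein.

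Gene expression was compared in 12 arrays, 2 in each of 6 groups named by the sample titles. The 42Y arrays came from KK-Ay (KK.Cg-Ay/J) mice and the 42WKK arrays from KK mice, both 42 weeks of age and kept on chow, where the A-y allele is carried by the KK-Ay mice alone. The 6Y and 16Y arrays came from T2D mice by every record, while ages and strains of the single arrays are not given. The 6K arrays are controls in the design text and T2D in the sample records, the 42Y arrays are T2D in the design text and controls in the sample records, and the pair titled 1-3 and 1-5, called control 1 here, are controls in both. Agouti, which the A-y allele drives in tissues where it is normally silent, had log2 signals from 6.78 to 7.06 in the 6 arrays with a Y in the title and from 5.20 to 5.51 in the 6 others, so the titles were followed. No source says whether each array came from its own mouse or from a pool, so the p-values measure only the spread between these arrays, which may be technical.

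The methods name liver as the source of the RNA and the sample records name blood. In every array the median log2 signal of 7 hepatocyte genes was 13.08 to 13.38, against 3.99 to 4.49 for 5 T cell genes. The 2 erythroid genes measured of 3 had array medians of 7.27 to 7.62, with Alas2, the heme synthesis enzyme of red cells, at 9.28 to 9.81 and Slc4a1, the red cell anion exchanger, at 4.75 to 5.79. The median of 5 enterocyte genes, the other main cell that makes Apob and Mttp, was 3.70 to 4.05, although Fabp2, the intestinal fatty acid binding protein in that list, read 7.77 to 9.09. The array medians over all 35556 clusters were 4.74 to 4.88.

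Promoter sequence is shown for the 3 members whose group means spread most, Mttp, Apoa4 and Apoa1, so that the genes behind the differences can be seen. Each run covers 250 bases before and 50 bases after a RefSeq start of the mouse build GRCm38.p6, read 5′ to 3′ on the gene's own strand. Whether these starts are the ones used in the sampled tissue was not tested. Mttp is the window chr3:138143369-138143668 on the minus strand, Apoa4 is chr9:46240594-46240893 and Apoa1 is chr9:46228380-46228679, both on the plus strand. Capitals mark motif matches.
Mttp: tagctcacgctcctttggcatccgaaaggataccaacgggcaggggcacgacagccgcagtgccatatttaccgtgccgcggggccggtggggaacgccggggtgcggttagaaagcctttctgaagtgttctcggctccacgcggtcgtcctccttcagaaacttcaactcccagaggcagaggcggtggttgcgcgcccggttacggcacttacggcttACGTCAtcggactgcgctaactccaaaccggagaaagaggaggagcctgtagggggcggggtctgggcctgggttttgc
Apoa4: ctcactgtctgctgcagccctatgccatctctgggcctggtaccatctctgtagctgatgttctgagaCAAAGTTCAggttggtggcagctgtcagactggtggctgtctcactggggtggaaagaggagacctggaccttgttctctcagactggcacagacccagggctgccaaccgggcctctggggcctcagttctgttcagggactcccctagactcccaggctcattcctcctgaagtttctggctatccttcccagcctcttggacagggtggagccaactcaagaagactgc
Apoa1: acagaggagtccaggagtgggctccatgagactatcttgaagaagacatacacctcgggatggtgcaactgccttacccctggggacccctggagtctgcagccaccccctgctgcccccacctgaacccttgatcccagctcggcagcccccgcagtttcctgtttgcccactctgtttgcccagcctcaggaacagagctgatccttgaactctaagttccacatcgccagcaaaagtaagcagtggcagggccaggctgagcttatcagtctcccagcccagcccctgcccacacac

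The capitals in the Mttp window are ACGTCA, the core of the cyclic AMP response element, starting 29 bases before the start, and 7.51% of 32851 promoter windows of this length hold that core on either strand. The capitals in the Apoa4 window are CAAAGTTCA, a form of the HNF4 and nuclear receptor repeat, starting 182 bases before the start and held by 0.39% of the windows. The related form CAAAGTCCA, held by 0.475%, did not occur in the 3 windows. Nor did TATAAA (13.6%), CACGTG (7.15%), AGGTCA (16.3%), TGTTTAC (3.65%), TGACGTCA (1.79%), which contains the ACGTCA core, or TTATGTAA (0.938%), each searched on both strands. The Apoa1 window held none of the motifs searched. The motif letters were chosen after the windows had been read, and a match is a string of letters, not a measured site. Of the 10 listed genes 8 had a window in the RefSeq table, with Apoc1 and Apoc3 as the exceptions. Mttp is on chromosome 3, and Apoa1, Apoc3, Apoa4 and Apoa5 follow each other in this order on chromosome 9.

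Mttp was lower in KK-Ay than in KK mice at 42 weeks and was the only member called between these groups. Its log2 signals were 10.00 and 9.91 in the 42Y arrays, against 10.55 and 10.45 in the 42WKK arrays. A gene was called where its adjusted p, corrected over all clusters by the Benjamini-Hochberg method, was under 0.05. Both KK-Ay arrays lay below both KK arrays, and the gap between the groups exceeded the gap within either. The log2 fold change was -0.55 (standard error 0.09, 95% interval -0.76 to -0.33, adjusted p = 0.033 from limma), a change in signal of -31.5%. By the same test 1.85% of all clusters were called in this comparison, and 0.920% of all clusters were called as lower. The call rested on the whole set of 12 arrays, since leaving out any single array moved the adjusted p to between 0.0508 and 0.205, with log2 fold changes of -0.60 to -0.50. Without the 6K arrays, whose records conflict, the count of members called was 0. The study lists Mttp in its table of mouse genes, which it describes as both hypermethylated at the promoter and silenced. The silencing was read in these same arrays, so the direction of Mttp here is not independent evidence. The methylation came from separate arrays that were not examined here.

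**Figure D1:**
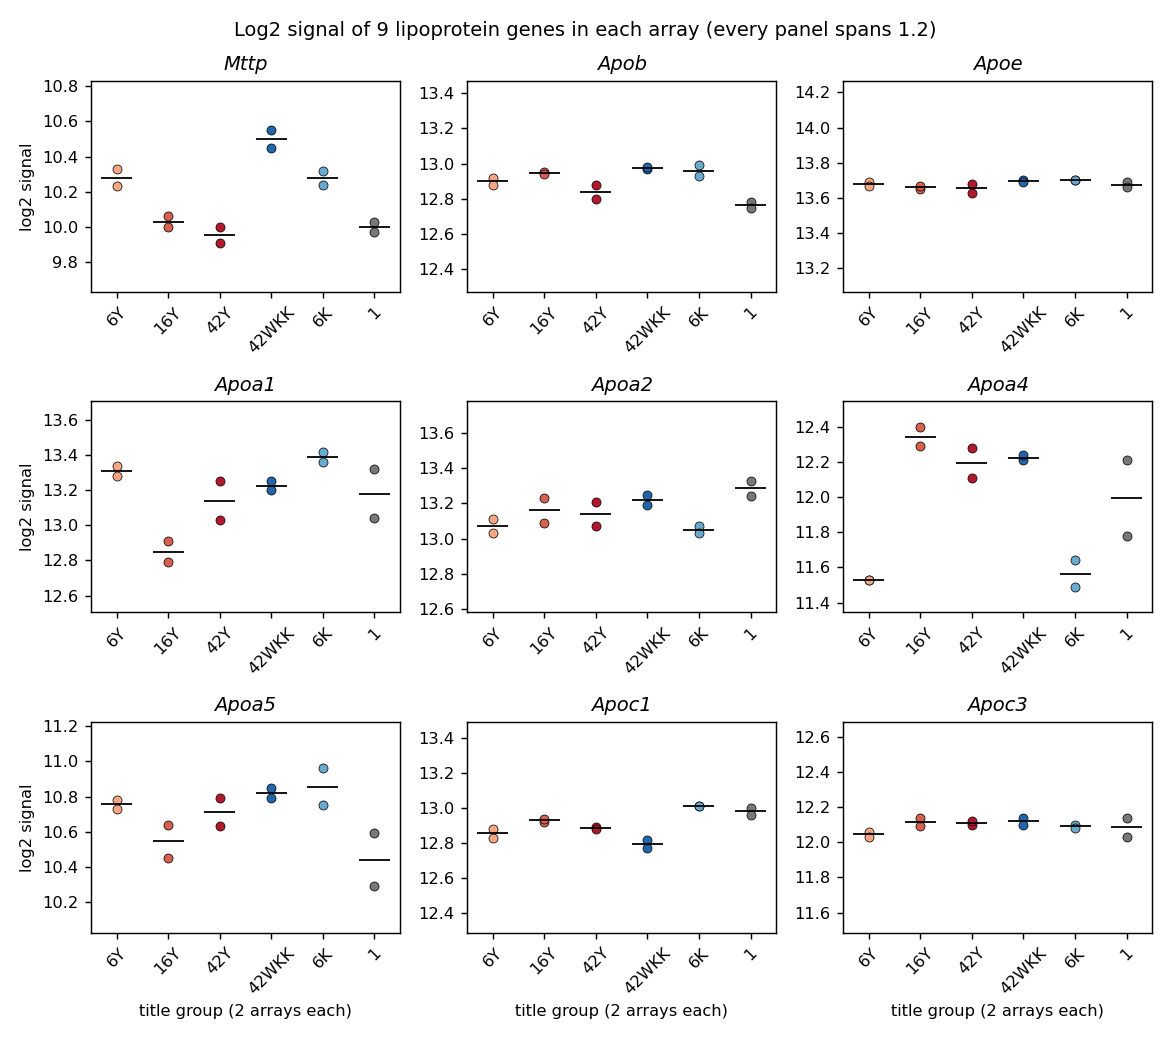
Log2 signal (y axis) of the 9 measured genes in each of the 12 arrays by title group (x axis), with a point for each array and a line for the mean of the 2 arrays in a group. Every panel spans the same 1.2 units, and Mttp is highest in 42WKK, Apoa4 is lowest in 6Y and 6K, and the points of Apoe and Apoc3 lie almost on a line.

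Among all 6 groups Mttp was highest in 42WKK and lowest in 42Y. Log2 signals of Mttp were 10.33 and 10.23 in 6Y, 10.00 and 10.06 in 16Y and 10.32 and 10.24 in 6K, while control 1 read 10.03 and 9.97. Ordered by group mean, Mttp ran from 42WKK to 6Y and 6K, then to 16Y, control 1 and 42Y. The 42Y arrays did not differ from control 1 beyond their spread (log2 fold change -0.05, 95% interval -0.26 to 0.17, adjusted p = 0.84 from limma, with 0 members and 1.25% of all clusters called), and 42WKK was higher than control 1 by 0.50 (standard error 0.09, adjusted p = 0.025). That last call was 1 of 9 members, where 5.71% of all clusters were called, 3.67% as higher, and it was lost without any one of the 4 arrays of these groups (adjusted p up to 0.151) and after quantile normalization. These comparisons share arrays, so they are not separate evidence.

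Among the arrays with a Y in the title no Mttp difference passed the test in the main fit. That of 42Y against 6Y passed only when dim clusters were removed or a variance trend was fitted. In these fits 11.3% and 2.75% of the clusters tested were called. The log2 fold change was -0.25 (standard error 0.09, adjusted p = 0.21) in 16Y against 6Y and -0.33 (standard error 0.09, adjusted p = 0.14) in 42Y against 6Y, both from limma. Between 6Y and 6K it was 0.00 (95% interval -0.21 to 0.22, adjusted p = 1.00). The 42-week difference less the difference of 6Y and 6K was -0.55 (standard error 0.13, adjusted p = 0.15 from limma), and 0 members were called for that contrast, where 0.143% of all clusters were.

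Clock genes moved in the same arrays. Arntl, the core activator of the circadian clock, read 5.62 and 5.67 on the log2 scale in 42Y and 7.74 and 7.64 in 42WKK, and 7.30 to 7.74 over all arrays other than 42Y. Its log2 fold change was -2.04 (standard error 0.09, adjusted p = 0.00029 from limma). Dbp, a clock output gene, read 7.81 and 9.01 in 42Y and 6.10 and 6.01 in 42WKK. Mttp signal in the mouse liver is known to follow the time of day, and the part of sampling time in the Mttp difference was not tested. Arntl was 7.30 and 7.38 in 16Y and 7.37 and 7.33 in control 1. These signals lay above both 42Y arrays and below every array of 6Y, 6K and 42WKK. The clock repressor Nr1d1 read 8.20 and 9.15 in 16Y and 8.38 and 8.41 in control 1. It read 5.95 to 6.86 in the 4 arrays of 6Y and 6K. In 42WKK, the group with the highest Mttp, Nr1d1 read 6.96 and 8.41, which overlaps 16Y and control 1.

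Apob itself, the protein that Mttp serves, differed little between groups. Its log2 signals were 12.88 and 12.80 in 42Y, against 12.97 and 12.98 in 42WKK. The KK-Ay arrays were below the KK arrays, but the log2 fold change of -0.14 (95% interval -0.33 to 0.06, adjusted p = 0.47 from limma) did not pass. The lowest Apob signals were those of control 1, at 12.78 and 12.75, and the highest of the 12 arrays read 12.99. In 42WKK against control 1 the log2 fold change of Apob was 0.21 (95% interval 0.01 to 0.41, adjusted p = 0.19 from limma). The interval excluded 0, but the adjusted p did not pass.

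Apoa4 was higher in 16Y than in 6Y and was the only member called there. Apoa4 is an apolipoprotein of the liver and gut that is carried on chylomicrons, VLDL and high density lipoprotein and is known to rise in fatty mouse liver. Its log2 signals were 12.29 and 12.40 in 16Y, against 11.53 and 11.53 in 6Y. The groups were far apart relative to the gap within them, and the log2 fold change was 0.81 (95% interval 0.48 to 1.14, standard error 0.15, adjusted p = 0.038 from limma), or 75.6% more signal. In this comparison 1.78% of all clusters were called, 0.582% as higher. The call was lost in 8 of the 12 fits with 1 array left out (adjusted p 0.0374 to 0.151, log2 fold changes 0.76 to 0.87), namely without either array of 6Y, 16Y, 6K or 42WKK, and the count was 0 without both 6K arrays.

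The Apoa4 signals of the 6Y and 6K arrays lay below those of the 8 other arrays. The 42Y arrays read 12.28 and 12.11 and the 42WKK arrays 12.21 and 12.24, which overlap. The 6K arrays read 11.49 and 11.64 and enclosed both 6Y arrays, while control 1 was wide, at 12.21 and 11.78. The log2 fold change of Apoa4 was 0.66 in 42Y against 6Y (standard error 0.15, adjusted p = 0.065 from limma) and also 0.66 in 42WKK against 6K (standard error 0.15, adjusted p = 0.080), each short of the threshold. In 42Y against 6Y, where 0 members and 1.83% of all clusters were called, 2 members had an unadjusted p under 0.05, and in 42WKK against 6K, where 0 members and 1.01% of all clusters were called, 3 did. Both Apoa4 differences passed without the control 1 arrays or when tested among clusters with 1 symbol. The A-y contrast itself gave log2 fold changes of -0.03 (95% interval -0.36 to 0.30) in 42Y against 42WKK and -0.04 (95% interval -0.37 to 0.29) in 6Y against 6K. The titles number the groups 6, 16 and 42, but 6 and 16 are not given as ages in the sources used here, so title number and age cannot be told apart from other differences between the groups.

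**Figure D2:**
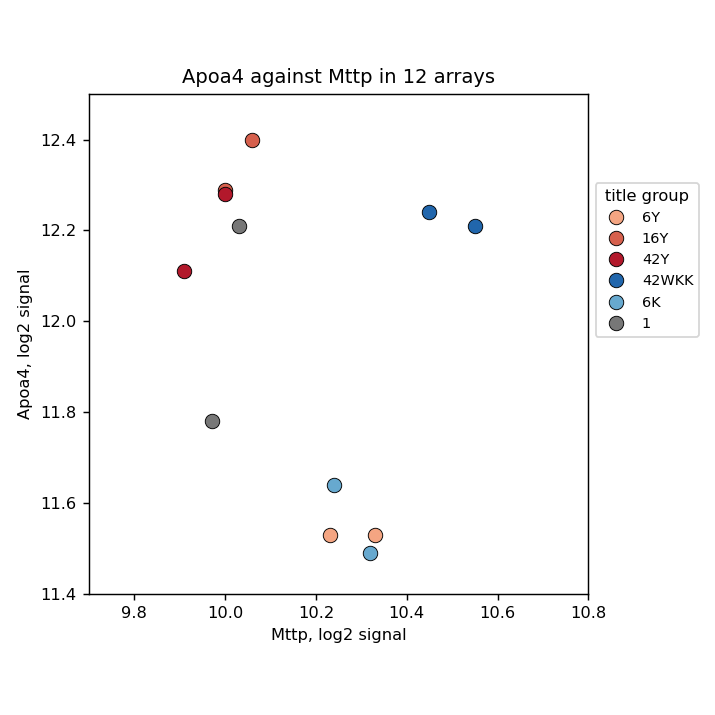
Apoa4 (y axis) against Mttp (x axis), both as log2 signals on axes of the same scale, with a point for each of the 12 arrays coloured by title group. The 42WKK arrays stand alone with both signals high, the 16Y and 42Y arrays have high Apoa4 with Mttp near 10, and the 6Y and 6K arrays have Apoa4 under 11.7 with Mttp between 10.2 and 10.4.

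Apoa1, the first gene of the same row on chromosome 9, had its lowest signals in 16Y. Its log2 signals were 13.34 and 13.28 in 6Y, 12.79 and 12.91 in 16Y and 13.25 and 13.03 in 42Y. Both 16Y arrays lay below every other array of the series, the next being 42Y replicate 2 and control 1-3, at 13.03 and 13.04. The log2 fold change in 16Y against 6Y was -0.46 (standard error 0.13, 95% interval -0.74 to -0.17, adjusted p = 0.11 from limma), and it passed only when dim clusters were removed or a variance trend was fitted, where 17.1% and 3.79% of the clusters tested were called. Apoc3, which lies between Apoa1 and Apoa4, had a log2 fold change of 0.06 in that comparison (95% interval -0.14 to 0.27), and Apoa5, on the far side of Apoa4, had -0.21 (95% interval -0.52 to 0.10). The log2 fold changes of these neighbours thus ran from -0.46 to 0.81 in the same arrays.

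Apoa5, the smallest in amount of the plasma apolipoproteins, ran from 10.29 to 10.96 over the 12 arrays, a range second to that of Apoa4 among the 9 genes. Its log2 signals were 10.79 and 10.85 in 42WKK, against 10.59 and 10.29 in control 1. The KK arrays lay above both controls, but the difference of 0.38 on the log2 scale (standard error 0.14, adjusted p = 0.14 from limma) did not pass. It passed after centring each array and without dim clusters, where 8.74% and 31.8% of the clusters tested were called. Apoa5 was 10.79 and 10.63 in 42Y, against 10.79 and 10.85 in 42WKK (log2 fold change -0.11, 95% interval -0.42 to 0.20). Apoa2 and the C apolipoproteins had smaller ranges. Apoa2 ran from 13.03 to 13.33, Apoc1 from 12.77 to 13.01 and Apoc3 from 12.03 to 12.14. Apoc1 in 42WKK against 6K gave -0.21 as its log2 fold change (standard error 0.09, adjusted p = 0.29 from limma), with 12.77 and 12.82 in 42WKK against 13.01 and 13.01 in 6K.

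Apoe varied least, from 13.63 to 13.70 over all 12 arrays. These signals lie close to the brightest cluster of each array, which read 13.82 to 13.97, and whether the array still responds in proportion there was not tested. The 95% intervals of its 10 log2 fold changes all included 0, and that of 42Y against 42WKK ran from -0.23 to 0.15. The intervals of Apoe and Apoc3 are wider than the gaps between their arrays because limma moves each variance toward that of all clusters. The macrophage marker list, of which Apoe-producing Kupffer cells are a source, had array medians of 6.10 to 7.97, and its part in the Apoe signal was not tested.

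**Figure D3:**
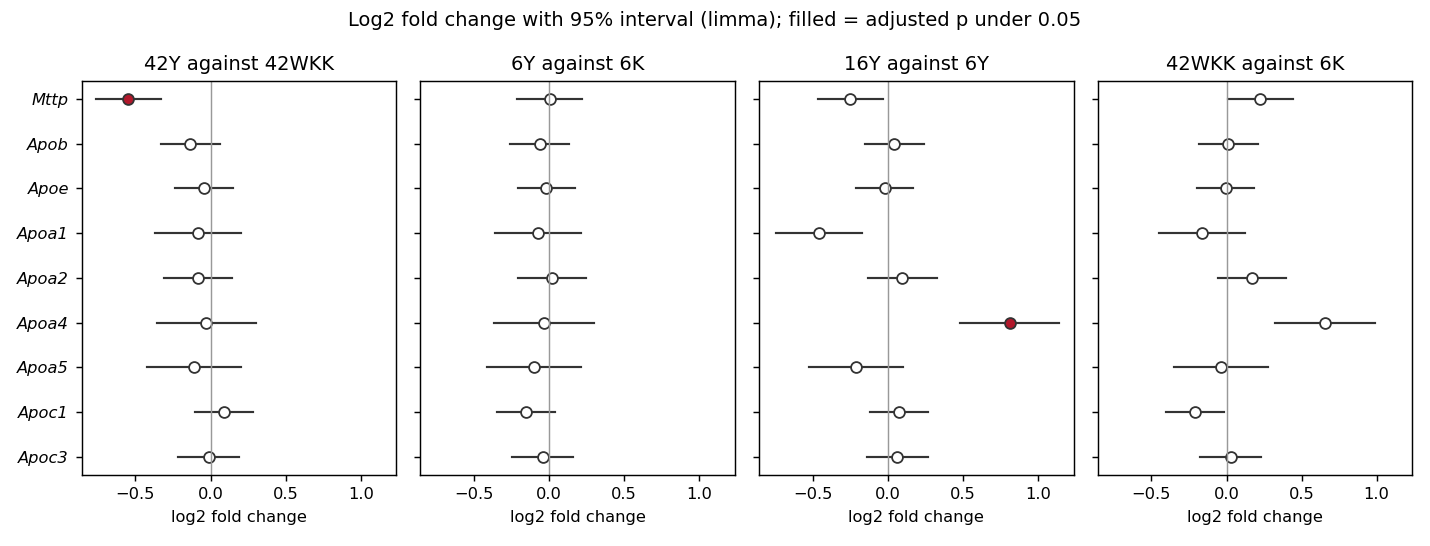
Log2 fold change (x axis) of the 9 genes (rows) in 4 comparisons, with points for the estimate, lines for the 95% interval from limma and a filled point where the adjusted p was under 0.05. Mttp at -0.55 in 42Y against 42WKK and Apoa4 at 0.81 in 16Y against 6Y are filled, and the row of Apoa4 is also far right in 42WKK against 6K at 0.66.

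Between the arrays with a Y in the title and the others no member was called. These sets also differ in title number, and the strain and age of control 1 are not given. The A-y allele thus cannot be told apart from those differences in this contrast. In the mean of 6Y, 16Y and 42Y against the mean of 42WKK, 6K and control 1 the log2 fold changes of the 9 genes ran from -0.17 for Mttp to 0.09 for Apoa4, where 0.208% of all clusters were called and 1 member, Mttp, had an unadjusted p under 0.05 (adjusted p = 0.27 from limma). For none of the 9 did all 6 Y arrays lie on one side of the 6 others, which held for 0.323% of all clusters. In 6Y against 6K, 0 members were called and 0 had an unadjusted p under 0.05, with log2 fold changes from -0.15 to 0.02. Agouti was the 1 cluster called in that comparison (0.00281% of all). In 42Y against 16Y, with 0.399% of all clusters called, 0 members were called and 0 had an unadjusted p under 0.05. In 42Y against 42WKK the median log2 fold change over the members was -0.08, against 0.02 over all clusters.

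Members whose groups did not overlap are counted here beside the share of all clusters. In 42Y against 42WKK 5 of the 9 did not overlap, where 47.8% of all clusters did not. The count was 5 in 6Y against 6K (35.4% of all clusters), 7 in 16Y against 6Y (49.4%), 5 in 42Y against 16Y (42.1%) and 4 in 42Y against 6Y (43.0%). It was 5 in 42WKK against 6K (50.0%), 5 in 42WKK against control 1 (56.7%) and 4 in 42Y against control 1 (46.8%).

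Other genes of lipoprotein assembly were read beside the members. Whether the calls of these and of the other list genes below hold with arrays left out was not tested. Over all clusters, 1.85% were called in 42Y against 42WKK, 1.78% in 16Y against 6Y and 1.83% in 42Y against 6Y. None of the 18 measured of 19 assembly and secretion partners was called in 42Y against 42WKK, with 4 at an unadjusted p under 0.05. Tm6sf2, which aids the lipidation of VLDL, was called in 16Y against 6Y, with log2 signals of 8.04 and 8.14 in 16Y, against 8.78 and 9.37 in 6Y (log2 fold change -0.98, standard error 0.20, adjusted p = 0.0499 from limma). Pla2g12b, a secreted phospholipase family member needed for VLDL secretion in mice, was called lower in 42Y than in 6Y, with 9.18 and 9.29 in 42Y against 9.72 and 9.81 in 6Y (log2 fold change -0.53, standard error 0.10, adjusted p = 0.042). In 42WKK against control 1, where Mttp was called, 3 of the 18 were called and all were higher, beside 5.71% of all clusters called and 3.67% called higher: Sar1b, the coat GTPase that exports lipoproteins from the endoplasmic reticulum, by 0.67 (adjusted p = 0.019), Mia2, a receptor for that export, by 0.82 (adjusted p = 0.014), and Pla2g12b by 0.61 (adjusted p = 0.018). Sar1b read 11.27 and 11.30 in 42WKK against 10.69 and 10.55 in control 1, groups far apart next to the gap within them. The array medians differed by -0.14 between these groups, and the part of that shift in these calls was not tested.

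The enzyme that edits Apob mRNA showed a wide gap that did not pass. Apobec1, which makes the shorter form of Apob in mouse liver, read 9.64 and 8.50 on the log2 scale in 42Y, against 7.66 and 7.34 in 42WKK. Both KK-Ay arrays were the highest of the 12, but they were 1.14 apart, and the log2 fold change of 1.57 had an adjusted p = 0.067 from limma. For its cofactor A1cf the log2 fold change was -0.47 (standard error 0.11, adjusted p = 0.072).

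Among receptors, lipases and regulators a few genes were called. Over all clusters, 1.85% were called in 42Y against 42WKK and 1.78% in 16Y against 6Y. The share was 1.01% in 42WKK against 6K and 1.83% in 42Y against 6Y. Of 13 measured of 18 receptor and lipase genes 1 was called higher in 42Y against 42WKK, Abca1, the cholesterol exporter that lipidates Apoa1, with 9.94 and 9.54 in 42Y against 8.96 and 8.93 in 42WKK (log2 fold change 0.80, standard error 0.15, adjusted p = 0.044 from limma). By group mean 42Y was the highest and 42WKK the lowest of all groups. Abca1 read 9.33 and 9.50 in 6Y, 9.47 and 9.48 in 6K, 8.94 and 9.26 in 16Y and 9.31 and 9.24 in control 1. Lpl, lipoprotein lipase, was called lower in 16Y against 6Y (log2 fold change -2.49, standard error 0.40, adjusted p = 0.032) and in 42WKK against 6K (-3.12, standard error 0.40, adjusted p = 0.018). Its log2 signals were 5.62 and 5.67 in 16Y, against 8.58 and 7.69 in 6Y, and 5.14 and 5.74 in 42WKK, against 8.83 and 8.30 in 6K. The highest of the 8 arrays outside 6Y and 6K read 7.01, so Lpl set apart the same 4 arrays in which Apoa4 was low. Sdc1, a proteoglycan that takes up remnants, was the other one called in 16Y against 6Y, at -0.55 (standard error 0.11, adjusted p = 0.047). Apof, the transfer inhibitor among the 13 other lipoprotein-borne proteins measured, was called lower in 42Y than in 6Y, at -0.50 (standard error 0.10, adjusted p = 0.044).

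Of 18 measured of 19 transcription factors that act on apolipoprotein genes, 2 were called in 42Y against 42WKK, where 1.85% of all clusters were. Both were higher. They were Cebpa, at 8.96 and 8.73 in 42Y against 7.80 and 8.02 in 42WKK (log2 fold change 0.93, standard error 0.14, adjusted p = 0.020 from limma), and Nr1d1, which also represses Apoc3, at 10.47 and 10.21 in 42Y against 6.96 and 8.41 in 42WKK (2.65, standard error 0.45, adjusted p = 0.032). For Cebpa the 42WKK arrays were the lowest of all arrays. The 42Y signals of Cebpa lay within the range of 6K (8.98 and 8.79) and 6Y (8.57 and 8.77). Cebpa read 8.33 and 8.49 in 16Y and 8.59 and 8.58 in control 1. Of the 18 factors 1 was called lower and 0 higher in 42WKK against 6K, where 1.01% of all clusters were called. Apoc3 was flat beside Nr1d1 in 42Y against 42WKK, with 12.10 and 12.12 in 42Y against 12.14 and 12.10 in 42WKK. Hnf4a, the main activator of Apob, Mttp and Apoc3, gave 0.51 on the log2 scale in 42Y against 42WKK (standard error 0.12, adjusted p = 0.081), while Mttp gave -0.55. The part of Nr1d1 or Hnf4a in the signals of Apoc3 and Mttp was not tested.

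The genes most like each of the 3 variable members were sought over the 12 arrays as a description, in which arrays of a group share their source. The Pearson correlation with Mttp was highest for Armc1 (0.969), Adh5 (0.969) and Uqcrb (0.952). Adh5, an alcohol dehydrogenase, lies on chromosome 3 with 7 coding genes between it and Mttp. None of the 9 measured among the 5 nearest coding genes on each side of Mttp was called in 42Y against 42WKK, where 1.85% of all clusters were. The clusters read for H2az1 and Lamtor3 are numbered apart from those of the other neighbours. Whether they measure the genes at this place was not tested. With Apoa4 the correlation was highest for Fmo5 (0.965), a flavin monooxygenase of the liver, Ranbp9 (0.939) and Ildr2 (0.937). Ildr2 read 7.69 and 7.37 in 42Y and 7.36 and 7.63 in 42WKK, against 5.6 and 6.01 in 6Y and 5.45 and 5.88 in 6K. With Apoa1 the correlation was highest for Gsr (0.937), glutathione reductase, Bnip1 (0.93) and the ribosomal protein gene Rpl6 (0.925).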

How the data were processed

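Gene expression was measured on Affymetrix arrays. The authors deposited log2 values for 35556 transcript clusters, summarised by robust multichip analysis (sketch) in Expression Console, a tool named in the submitters' processing notes. The genome build and annotation are not given in the sources used here. An exon array is named in the methods, but the cluster numbers belong to the gene array.

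Arrays were grouped by sample title. The 12 arrays were fitted with 1 mean per group by lmFit and eBayes without trend (limma 3.58.1, R 4.3.3), with Benjamini-Hochberg adjustment over all clusters and calls at an adjusted p under 0.05. Of the clusters, 21789 carried 1 symbol, 1621 several and 12146 none, and 21698 were matched to GRCm38.p6 by gene identifier. A list gene is its cluster with the highest mean. The named genes were the members, up to 4 called genes per list and comparison, the 3 clusters most like each of the 3 members with the widest spread of group means, agouti and clock genes. Other genes, such as Apobec1, A1cf and Hnf4a, and the neighbours of Mttp were named after their values were seen. Members and lists were chosen with earlier results of these data known. Simulated data were used to test the fit. Precision is limited by the number of arrays. Alternatives covered normalization, centring, a filter at a mean log2 of 6, a variance trend, clusters with 1 symbol, groups or arrays left out, 42Y and 42WKK fitted on their own, the ANOVA of the paper's table and the replicate number as a block. Some listed genes are not analysed here. Promoter sequences are those of RefSeq.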

Additional observations from a re-analysis of the deposited data

Results flagged for a closer look

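Of 18 sets of 6 arrays examined, which were each gene over the Y arrays and over the others, 1 held an array far from the rest, about what chance gives (1 in 20). Apoe read 13.66 in array 1-5, below the other arrays without a Y in the title, in a set whose whole range was very small.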

How the results depend on the processing

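Between 42Y and 42WKK (1 member called, Mttp) 0 were called without the 6K arrays, without the control 1 arrays, in the 4 arrays of 42-week mice alone and by the ANOVA of the paper's table after adjustment, and 0 to 0 with an array left out. Between 16Y and 6Y (1, Apoa4) there were 2 with a mean log2 of at least 6 and 2 with a variance trend (Apoa1 added), 0 without the 6K arrays, and 0 to 1 with an array left out. Between 42Y and 6Y (0) there were 2 with the mean filter (11.3% of clusters tested called), 2 with the trend (2.75%), 1 with 1 symbol (5.54%), 1 without control 1 (1.16%) and 0 to 1 with an array left out. Between 42WKK and 6K (0) there was 1 in each of these 4 fits, always Apoa4 (12.4%, 2.38%, 2.97% and 0.799% of clusters), and 0 to 1 with an array left out. Between 42WKK and control 1 (1, Mttp) there were 0 after quantile normalization (4.42% of clusters), 2 after centring (8.74%) and 2 with the mean filter (31.8%), with Apoa5 added, and leaving out single arrays gave 0 to 1. For the contrast of the 42-week pair with 6Y and 6K (0) there was 1 member with the mean filter (Mttp, 5.28% of clusters). Over all clusters the count called in 42Y against 42WKK was 659, against 1721 with the mean filter, 1113 with the trend, 1000 with 1 symbol, 360 without 6K, 389 without control 1, 0 in the 4 arrays alone and from 52 to 500 when single arrays were dropped, and in 16Y against 6Y it was 634, against 2011, 1349 and 1179 in the first 3 of these fits, 966 after centring, 194 without 6K, 248 without control 1 and 8 to 659 with an array left out. Fits with fewer arrays have fewer degrees of freedom. A lone array left in a group is assumed to vary like the other groups. No called value changed sign in any of 1746 alternative values for the members, and 75 values that were called in neither fit had the other sign.

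The titles of 6K, 6Y, 16Y and 42Y share replicate numbers, whose deviations correlated by -0.036 to 0.055 between groups. No large effect shared by arrays of the same number was seen, while a small one would not show in this way. With the replicate block over these 8 arrays 0 members were called between 16Y and 6Y, as without the block on the same 8 arrays (0), a fit chosen after seeing the data, and 16 and 19 of all clusters were called in these fits.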
